A study of Mus musculus with 9 samples.

Results

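Transcripts of 10 iron handling genes were examined in substantia nigra, an iron-rich midbrain nucleus whose dopaminergic neurons die in Parkinson's disease. The genes were taken from the count table by symbol, and all 10 were found among its 20591 rows. They are Trf, Tfrc, Slc11a2, Fth1, Ftl1, Slc40a1, Cp, Heph, Aco1 and Ireb2. Trf was chosen by its own level, which in both fasted groups lay below that of ad libitum mice, so its values in those 2 comparisons are a description with no test. The other 9 genes were placed beside it for their role in iron transport, storage, export or sensing.

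The mice were wild type C57BL/6, all sham-operated, and 12 weeks of age at the start of the diets. The 9 libraries form 3 groups of 3. Mice of the 1 day group were fasted once for 24 hours, from 2 hours before lights off. Mice of the 1 week group were kept for 1 week on intermittent fasting, with 3 such fasts. The ad libitum mice had food throughout the week and were moved between cages like the others. Neither the interval between the last fast and sampling nor the sex of the mice is given in the sources used here, and whether every library is a separate mouse is not stated. The p-values therefore rest on the spread between libraries, which may be technical in part.

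Iron travels bound to transferrin, enters cells through the transferrin receptor and leaves the endosome through the divalent metal transporter. Inside cells it is stored in ferritin, a shell of heavy and light subunits, and it leaves through ferroportin with the help of copper ferroxidases. In the brain, oligodendrocytes are the main source of transferrin mRNA, together with the choroid plexus. Both iron regulatory proteins, the products of Aco1 and Ireb2, bind a stem-loop called the iron-responsive element when cell iron is low. An element in the 5′ UTR then blocks translation, and elements in the 3′ UTR protect the transcript from decay.

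The elements are shown here because they divide the genes carrying them by what iron regulatory proteins are known to control, transcript abundance or translation. The motif searched, in the sense strand of transcripts only, was a C, 5 bases, the loop CAGTGN and 5 bases that pair with the first 5, with G and T allowed to pair. In GENCODE M21 transcripts (build GRCm38) it was present in 4 of the 10 genes, and in 1.34% of 22527 coding genes. Each window below has 30 bases, written 5′ to 3′ with the 6 bases of the loop in capitals.
Fth1 5′ UTR, chromosome 19: gtttcctgcttcaaCAGTGCttgaacggaa
Ftl1 5′ UTR, chromosome 7: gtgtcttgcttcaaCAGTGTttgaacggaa
Slc40a1 5′ UTR, chromosome 1: tccaacttcagctaCAGTGTtagctaagtt
Tfrc 3′ UTR, chromosome 16, bulge at base 3321 of the transcript: ataattatcggaagCAGTGCcttccataat
Tfrc 3′ UTR, bulge at base 3700: cacattatcgggagCAGTGTcttccataat
Tfrc 3′ UTR, bulge at base 3765: gtctatatcggagaCAGTGAtctccatatg
Tfrc 3′ UTR, bulge at base 3812: gtaattatcgggaaCAGTGTttcccataat
The windows of Fth1 and Ftl1 were the same at 27 of 30 bases, and that of Slc40a1 matched the Fth1 window at 13. The 4 Tfrc windows shared between 18 and 25 of 30 bases with one another. No match was found in the transcripts of Trf, Slc11a2, Cp, Heph, Aco1 and Ireb2, which says only that these letters are not in the transcripts searched. It does not say that these genes lie outside control by the iron regulatory proteins. Counts per gene show the abundance of a transcript and not its translation, so they do not read out the 5′ elements.

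Library totals ranged from 37732284 to 46522059 counts in the 1 day group, from 36109995 to 54248856 in the 1 week group and from 38516394 to 45693865 in the ad libitum group. The 10 genes had between 246 counts (Slc40a1) and 65041 counts (Fth1) in a library. Levels below are CPM, counts relative to the TMM-scaled library total, unless they are given per kilobase of transcript. The tissue label was checked with 10 dopaminergic markers, all of which were measured with no library at 0, and their summed level was 731 to 1500 CPM in the 1 day group, 1141 to 1798 CPM in the 1 week group and 1118 to 1472 CPM in the ad libitum group. Neighbouring tissue differed between libraries. Summed markers of cortical neurons were at 1368 CPM in 1 week replicate 3 and at 226 to 412 CPM in the other 8 libraries, and those of choroid plexus were at 421 CPM in ad libitum replicate 3 and at 36.6 to 80.9 CPM in the others. In each fasted group 1 library stood apart, 1 day replicate 2 and 1 week replicate 2, with estimated quality weights of 0.213 and 0.507 against 0.972 to 1.93 in the other 7, and results that rest on them are given with and without them.

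Per kilobase of transcript, Fth1 was the highest of the 10 genes in ad libitum mice, at 1289 ± 98.4 CPM per kb (SD, n = 3). Trf followed at 368 ± 36.6, Ftl1 at 156 ± 14.4, Tfrc at 21.6 ± 3.69, Slc11a2 at 15.1 ± 0.707, Ireb2 at 12.98 ± 1.27, Aco1 at 9.63 ± 0.585, Cp at 5.77 ± 1.68, Heph at 4.60 ± 0.648 and Slc40a1 at 3.72 ± 0.470 CPM per kb. Neighbours in this order did not overlap in the 3 ad libitum libraries, except Cp and Heph. Trf and Ftl1 stood closer in the fasted groups, where Trf was at 171 ± 10.3 and Ftl1 at 116 ± 43.0 CPM per kb after 1 day, and Trf was at 170 ± 40.3 and Ftl1 at 155 ± 47.5 CPM per kb after 1 week. Slc11a2 and Aco1 varied least over the 9 libraries, with a highest level per kb 1.17 and 1.19 times the lowest, and Trf varied most, at 3.22 times.

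**Figure D1:**
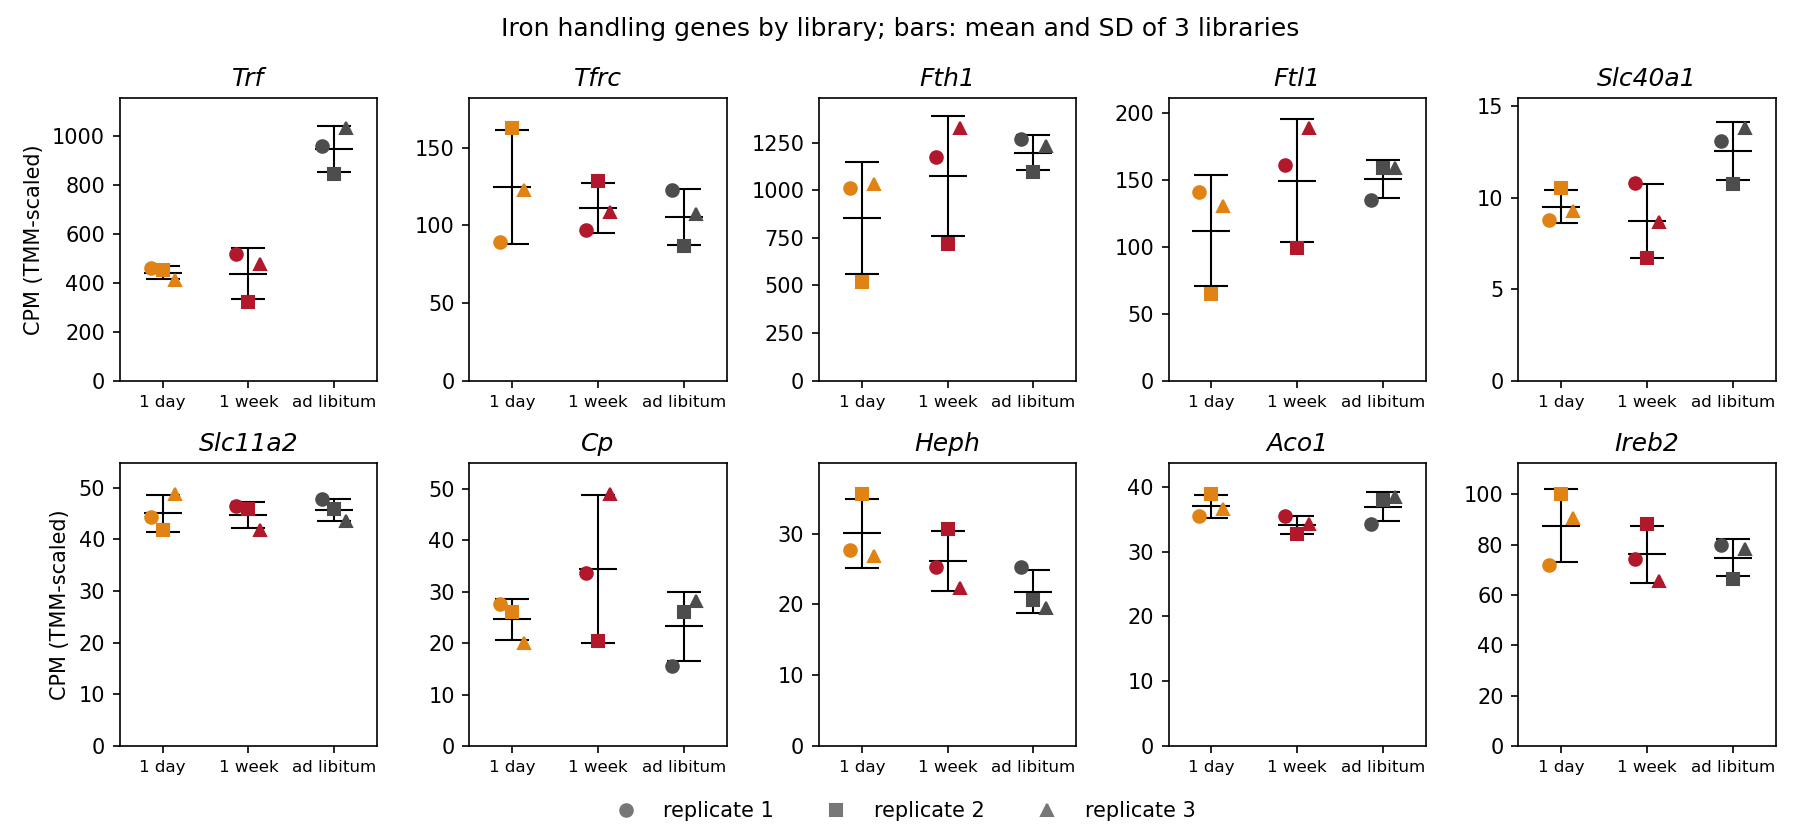
Level of each gene (CPM on the TMM scale, linear axis from 0) in the 3 libraries of the 1 day, 1 week and ad libitum groups, with the symbol shape giving the replicate and bars the mean and SD. Trf is the panel in which all 6 fasted libraries, at 320 to 517 CPM, sit well below the 3 ad libitum libraries, at 845 to 1031 CPM, and replicate 2 (squares) is low for Fth1 and Ftl1 in both fasted groups.

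Trf (ENSMUSG00000032554, chromosome 9), the gene of the iron carrier of plasma and brain fluid, was at 459, 453 and 410 CPM in the 1 day libraries, against 961, 845 and 1031 CPM in the ad libitum libraries. In the 1 week libraries it was at 517, 320 and 477 CPM. Every fasted library lay below every ad libitum library, and the fasted groups overlapped each other. The level after 1 day was 0.466 times that of ad libitum mice (log2 fold change -1.10, SE 0.17), and after 1 week it was 0.463 times (-1.11, SE 0.17). These values chose the gene and support nothing here. Of the 10 genes, Trf was the 1 past the threshold of edgeR's test over all genes after 1 week and none was past it after 1 day, where 0.307% and 0.0584% of 20535 genes were called, and nothing is read from these counts. At an unadjusted p under 0.05 there was 1 of the 9 genes other than Trf after 1 day (Heph), against 9.27% of all genes, and 1 of 9 after 1 week (Slc40a1), against 11.2% of all genes. DESeq2 and limma's voom called Trf in both comparisons and no other of the 10 genes. Over all genes DESeq2 called 184 after 1 day and 464 after 1 week, and voom called 93 and 296. The calls of Trf rest on the values that chose it and add no support. The 1 week call of Trf in edgeR ended with any 1 of the ad libitum libraries, 1 day replicate 1 or 1 week replicate 3 left out, and its log2 fold change in those fits was between -1.19 and -1.03. Over 17 alternative fits the log2 fold change was between -1.18 and -1.03 after 1 day and between -1.25 and -0.92 after 1 week.

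The comparison of 1 week with 1 day was not used to choose the gene. Trf averaged 438 ± 104 CPM after 1 week and 441 ± 26.5 CPM after 1 day (SD, n = 3 each), a log2 fold change of -0.01 with a 95% interval from -0.38 to 0.36 (edgeR, SE 0.17, adjusted p = 0.991). The lowest fasted library was 1 week replicate 2. With replicate 2 of both fasted groups left out, the log2 fold change was 0.20, also short of the threshold (edgeR adjusted p = 0.632).

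Trf was set against the other transcripts of oligodendrocytes, the myelin-forming cells. All 17 markers were measured with none at 0, and their summed level was 10606 to 12645 CPM in the 1 day group, 11379 to 12811 CPM in the 1 week group and 12270 to 14910 CPM in the ad libitum group. Trf, which is not in the sum, was at 3.78%, 3.58% and 3.87% of that level in the 1 day libraries, 4.03%, 2.82% and 3.86% in the 1 week libraries and 7.71%, 6.89% and 6.92% in the ad libitum libraries. Relative to Mbp, the myelin basic protein gene, Trf was at 8.45% to 10.3% after 1 day, 7.06% to 9.28% after 1 week and 16.2% to 20.0% in ad libitum mice. Relative to Mag, a myelin adhesion gene, Trf was at 145% to 154% after 1 day, 113% to 166% after 1 week and 195% to 231% in ad libitum mice. These ratios rest on the Trf values that chose the gene and add no support of their own. In bulk tissue, fewer cells of a type and less RNA per cell cannot be told apart.

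**Figure D2:**
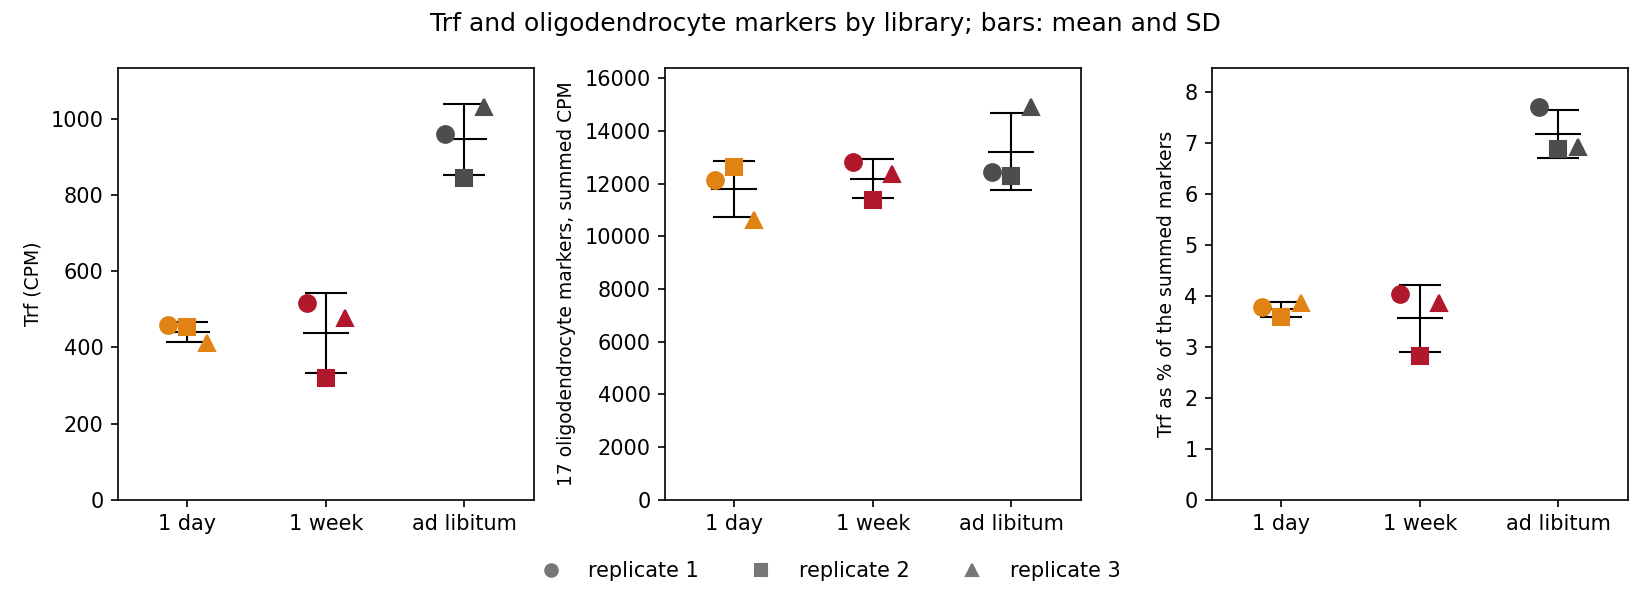
Trf level (CPM), summed level of 17 oligodendrocyte markers (CPM) and Trf as a percentage of that sum, each on a linear axis from 0, for the 3 libraries of the 1 day, 1 week and ad libitum groups with mean and SD. The summed markers of the groups overlap, while Trf is at 2.82% to 4.03% of the sum in fasted libraries and at 6.89% to 7.71% in ad libitum libraries.

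Of the 17 oligodendrocyte markers none passed the test after 1 day, when their median log2 fold change was -0.27 and that of all genes was 0.00041. After 1 week 2 fell, and the median was -0.34 against -0.0013 over all genes. Among these was Ugt8a, whose enzyme synthesises galactocerebroside for myelin, at 51.3 ± 8.69 CPM after 1 week and 121 ± 18.9 CPM in ad libitum mice (SD, n = 3 each, log2 fold change -1.24, edgeR adjusted p = 0.0381). Its call ended with any 1 ad libitum library, any 1 of 1 week replicates 2 and 3, or 1 day replicate 1 left out. At an unadjusted p under 0.05 there were 8 of 17 markers after 1 day, against 9.27% of all genes, and 7 after 1 week, against 11.2%. Called by edgeR at the adjusted threshold were 0.0584% and 0.307% of all genes. With DESeq2 the markers called lower were 5 and 5, where it called 184 and 464 of all genes. With limma's voom they were 3 and 5, where it called 93 and 296 of all genes. Mbp was at 4738 ± 599 CPM after 1 day, 5216 ± 588 CPM after 1 week and 5423 ± 745 CPM in ad libitum mice (SD, n = 3 each), with adjusted p of 0.645 and 0.920. The part of these shifts in the Trf values was not tested. Choroid plexus, the other source of Trf transcripts, had its highest marker level in ad libitum replicate 3, the library with the highest Trf. The other 2 ad libitum libraries, with Trf at 961 and 845 CPM, had choroid plexus sums of 43.1 and 54.3 CPM, within the range of the fasted libraries. The part of choroid plexus in the Trf values was not tested.

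The genes whose log2 level over the 9 libraries was most like that of Trf were ranked among 10429 others with a mean of at least 10 CPM. Adam19, a cell surface metalloprotease gene, came first at a Pearson r of 0.987, followed by Myo1d, an unconventional myosin gene, at 0.983, and Gatm, which makes the creatine precursor, at 0.978. Then came Elovl5, a fatty acid elongase gene, at 0.976, Rmnd1, a gene of mitochondrial translation, at 0.975, Cd82, a tetraspanin gene, at 0.974, Cnp, a myelin enzyme gene, at 0.973, and Unc5b, a netrin receptor gene, at 0.969. These values are descriptions over 9 libraries that share their depth and their split into fed and fasted groups. The difference from ad libitum was smaller than that of Trf in 7 of the 8 genes after 1 week, from -0.83 for Myo1d to -0.34 for Cnp on the log2 scale, and that of Unc5b was -1.15.

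Tfrc (ENSMUSG00000022797, chromosome 16), the receptor that takes up iron-loaded transferrin, was at 89.0, 162 and 122 CPM in the 1 day libraries and at 123, 86.6 and 107 CPM in the ad libitum libraries. In the 1 week libraries it was at 97.0, 128 and 108 CPM. The 3 groups overlapped, and the highest library was 1 day replicate 2. The log2 fold change was 0.24 after 1 day (95% interval -0.23 to 0.71, edgeR adjusted p = 0.683) and 0.08 after 1 week (-0.40 to 0.55, adjusted p = 0.925). Without replicate 2 of both fasted groups these values were 0.0037 and -0.03. Slc11a2 (ENSMUSG00000023030, chromosome 15), the divalent metal transporter that moves iron out of the endosome, was at 44.4, 41.8 and 48.9 CPM in the 1 day libraries, 46.4, 45.9 and 41.8 CPM in the 1 week libraries and 47.8, 45.9 and 43.5 CPM in the ad libitum libraries. The groups covered the same range. Its intervals were the second narrowest of the set, from -0.24 to 0.20 on the log2 scale after 1 day and from -0.25 to 0.19 after 1 week (adjusted p = 0.946 and 0.932). These intervals of Tfrc and Slc11a2 do not reach the log2 changes of Trf, but those changes chose Trf, so nothing is read from the contrast.

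**Figure D3:**
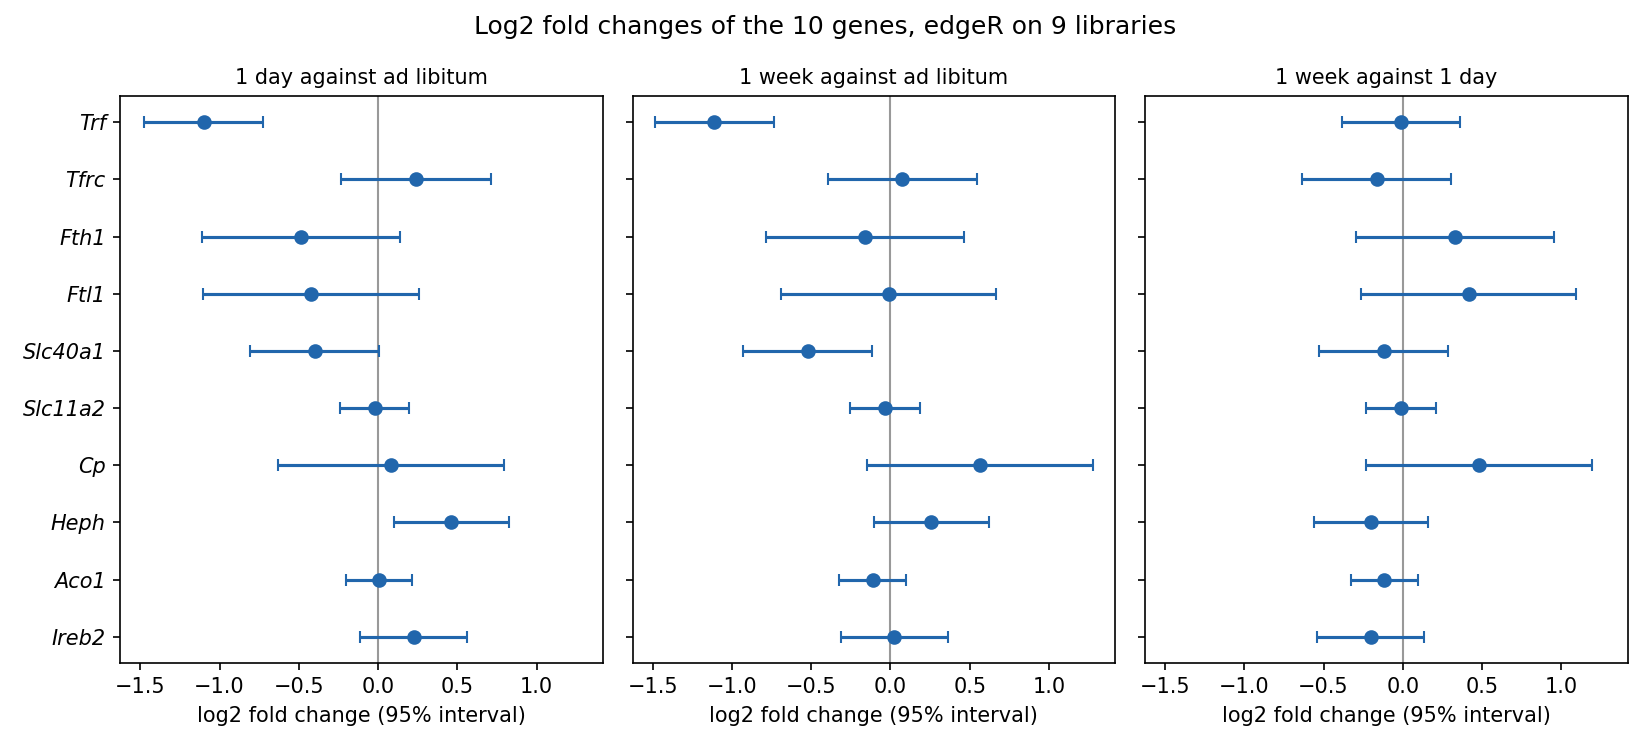
Log2 fold change with its 95% interval for each gene in the 3 comparisons, from the fit to all 9 libraries, with the fasted or longer regimen over the other group. Trf stands near -1.1 in both comparisons with ad libitum, values that chose it, and at -0.01 between 1 week and 1 day. The intervals of the other 9 genes cover 0, except those of Heph after 1 day and Slc40a1 after 1 week, and none of these genes passed the adjusted test.

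Fth1 (ENSMUSG00000024661, chromosome 19) encodes the heavy ferritin subunit, which oxidises iron, and Ftl1 (ENSMUSG00000050708, chromosome 7) the light subunit. Fth1 was at 1012, 518 and 1035 CPM in the 1 day libraries, against 1268, 1094 and 1230 CPM in the ad libitum libraries. In the 1 week libraries it was at 1172, 720 and 1326 CPM. All 1 day libraries lay below the ad libitum ones, while the 1 week group overlapped them. Ftl1 was at 141, 64.6 and 131 CPM in the 1 day libraries, 161, 99.1 and 189 CPM in the 1 week libraries and 135, 159 and 159 CPM in the ad libitum libraries. Replicate 2 was the lowest library of both fasted groups for both subunits. Neither gene passed the test, with log2 fold changes of -0.49 and -0.43 after 1 day (edgeR adjusted p = 0.576 and 0.618) and of -0.16 and -0.01 after 1 week (adjusted p = 0.881 and 0.994). Without replicate 2 of both fasted groups the 1 day values were -0.23 and -0.15, and the 1 week values were 0.07 and 0.22.

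The 2 subunits were also compared within each library. The Fth1 to Ftl1 count ratio was 7.16, 8.02 and 7.90 in the 1 day libraries, 7.27, 7.26 and 7.02 in the 1 week libraries and 9.41, 6.88 and 7.74 in the ad libitum libraries. The groups overlapped, and the mean log2 ratio differed from ad libitum by -0.05 after 1 day and -0.14 after 1 week (two-sided exact permutation tests, p = 0.9 and 0.4, where 0.1 is the smallest p that 3 libraries against 3 allow). Salmon divides reads between Ftl1 and near-identical pseudogenes such as Ftl1-ps1, and between Fth1 and its processed copies, so these counts carry that uncertainty.

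The libraries that were low in ferritin transcripts were high in the transcripts of Tfrc, Heph and Ireb2. In 1 day replicate 2, log2 levels relative to the mean of the 9 libraries were -0.95 for Fth1 and -1.03 for Ftl1, but 0.54 for Tfrc, 0.48 for Heph and 0.35 for Ireb2. In 1 week replicate 2 they were -0.48, -0.42, 0.20, 0.26 and 0.16 for the same genes. Transcript length moved with them. Fth1 and Ftl1 have the shortest transcripts of the set (929 and 968 bases) and Ireb2, Tfrc and Heph the longest (5770, 4890 and 4743 bases). Over all genes with a mean of at least 10 CPM, the median deviation of 517 genes with transcripts under 1000 bases minus that of 3913 genes with transcripts over 4000 bases was -0.14 in 1 day replicate 2 and -0.06 in 1 week replicate 2, the 2 lowest values, and between -0.04 and 0.08 in the other 7 libraries. The part of transcript length in these values was not tested.

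**Figure D4:**
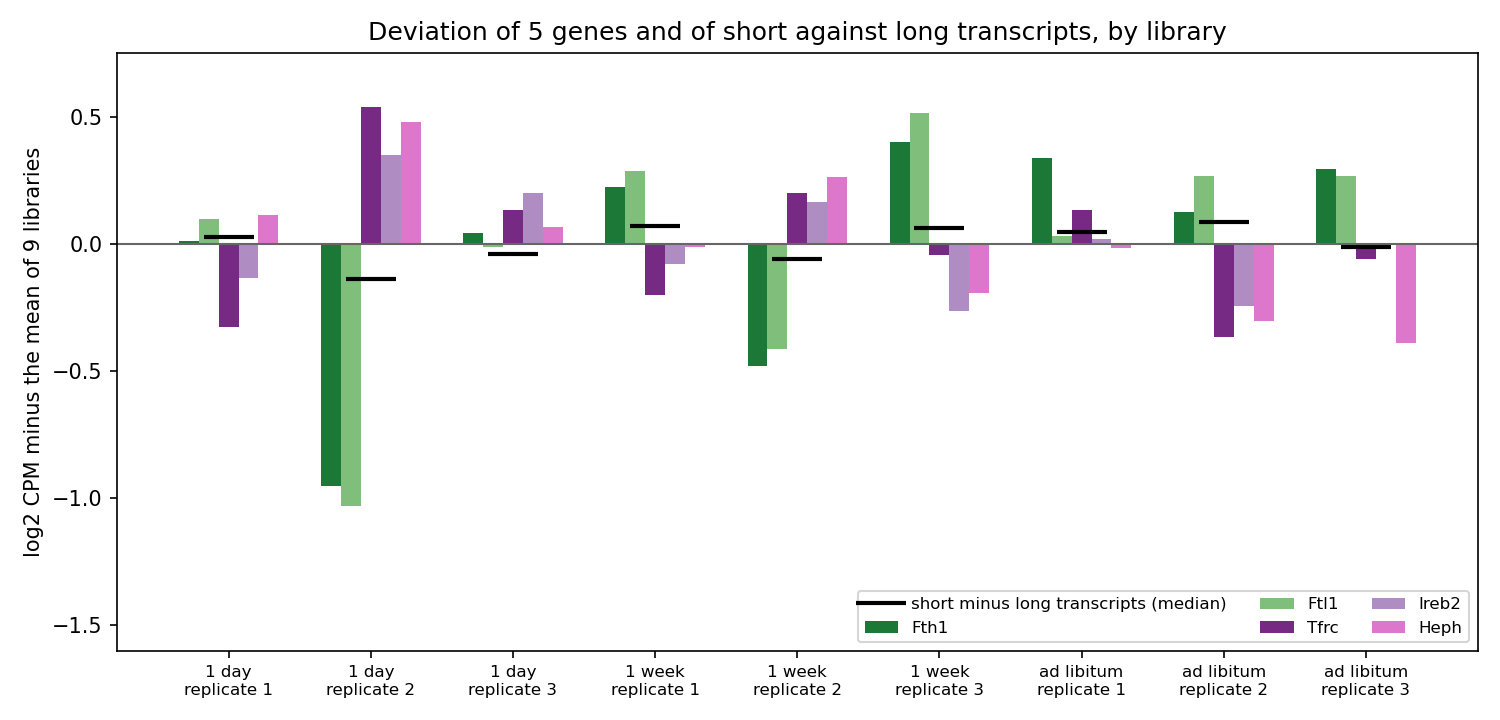
Log2 CPM minus the mean of 9 libraries for the ferritin subunits Fth1 and Ftl1 (green bars) and for Tfrc, Ireb2 and Heph (purple and pink bars) in each library, with a black line for the median deviation of transcripts under 1000 bases minus that of transcripts over 4000 bases. In 1 day replicate 2 the ferritin bars reach -0.95 and -1.03 while the other 3 genes lie between 0.35 and 0.54, and 1 week replicate 2 shows the same signs at smaller size.

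Iron regulatory proteins are known to act on Tfrc through transcript decay and on Fth1 through translation. The count ratio of the pair therefore does not read out the control of Fth1. The ratio of Tfrc to Fth1 was 0.0879, 0.314 and 0.118 in the 1 day libraries, 0.0828, 0.178 and 0.0816 in the 1 week libraries and 0.0967, 0.0792 and 0.0872 in the ad libitum libraries. The groups overlapped, and replicate 2 held the highest ratio of each fasted group. The mean log2 ratio differed from ad libitum by 0.76 after 1 day and 0.28 after 1 week (two-sided exact permutation tests, p = 0.2 and 0.8). Without 1 day replicate 2 the 1 day difference was 0.22, and without 1 week replicate 2 the 1 week difference was -0.088.

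Slc40a1 (ENSMUSG00000025993, chromosome 1) encodes ferroportin, the iron exporter. It was at 8.75, 10.5 and 9.27 CPM in the 1 day libraries, against 13.1, 10.8 and 13.8 CPM in the ad libitum libraries. In the 1 week libraries it was at 10.8, 6.71 and 8.69 CPM. Ad libitum libraries were the higher ones, without overlap with the 1 day group and with an overlap of 1 library, at 10.8 CPM in each group, with the 1 week group. The log2 fold change was -0.40 after 1 day (95% interval -0.81 to 0.0033, edgeR adjusted p = 0.542) and -0.52 after 1 week (-0.93 to -0.12, unadjusted p = 0.0165, adjusted p = 0.318), so neither passed. It was -0.48 and -0.36 without replicate 2 of both fasted groups. The Slc40a1 to Tfrc count ratio was 0.0984, 0.0648 and 0.0758 after 1 day and 0.107, 0.124 and 0.129 in ad libitum mice, without overlap, a mean difference of -0.61 on the log2 scale (two-sided exact permutation test, p = 0.1, the smallest possible). After 1 week the ratio was 0.111, 0.0524 and 0.0804, and the difference was -0.62 (two-sided exact permutation test, p = 0.2). The 1 day difference was -0.47 without 1 day replicate 2, and the 1 week difference was -0.34 without 1 week replicate 2. Microglia and endothelial cells also express ferroportin. Summed markers of microglia (15 of 15 measured, none at 0) were at 294 to 334 CPM after 1 day, 264 to 402 CPM after 1 week and 398 to 437 CPM in ad libitum mice. None was past edgeR's test in either comparison, and 7 and 3 of 15 had an unadjusted p under 0.05. Over all genes, 9.27% and 11.2% had such a p. DESeq2 and voom each called 1 of the 15, Fcrls, lower after 1 day and after 1 week. Over all genes DESeq2 called 184 and 464, and voom 93 and 296. Summed endothelial markers (12 of 12 measured, none at 0) were at 508 to 584 CPM after 1 day, 591 to 633 CPM after 1 week and 484 to 582 CPM in ad libitum mice. Their median log2 fold change was -0.27 after 1 day and -0.25 after 1 week. An unadjusted p under 0.05 was found for 7 and 5 of 12, against 9.27% and 11.2% of all genes. Without overlap, 5 and 2 of 12 lay below ad libitum, against 10.3% and 11.5% of all genes. Above it lay 2 and 1 of 12, against 8.17% and 10.9% of all genes. The 1 marker past edgeR's test was Slc2a1, the glucose transporter gene of the blood-brain barrier, which was higher after 1 week, at 213, 277 and 247 CPM, against 117, 135 and 138 CPM in the ad libitum libraries. Its call ended with the replicate block, without replicate 2 of both fasted groups, and with any single library of the ad libitum group, 1 day replicate 1, 1 week replicate 2 or 1 week replicate 3 left out. The part of these cells in the Slc40a1 values was not tested.

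Export needs a ferroxidase, and the brain has a secreted or membrane-anchored one, ceruloplasmin, and a membrane paralog, hephaestin. Cp (ENSMUSG00000003617, chromosome 3) was at 27.7, 26.2 and 20.1 CPM in the 1 day libraries, 33.7, 20.4 and 49.1 CPM in the 1 week libraries and 15.5, 26.0 and 28.2 CPM in the ad libitum libraries. The groups overlapped, and the highest library was 1 week replicate 3. Its log2 fold change was 0.08 after 1 day (edgeR adjusted p = 0.934) and 0.57 after 1 week (95% interval -0.15 to 1.28, adjusted p = 0.569), and 0.84 after 1 week without replicate 2 of both fasted groups. The summed markers of fibroblasts and meninges were also highest in 1 week replicate 3, at 598 CPM, and ranged from 172 to 249 CPM in the 1 day group, from 206 to 598 CPM in the 1 week group and from 191 to 391 CPM in the ad libitum group. All 12 of these markers were measured with none at 0, and none passed the test of edgeR, DESeq2 or voom. At an unadjusted p under 0.05 there were 2 after 1 day and 0 after 1 week, against 9.27% and 11.2% of all genes. The part of these markers in the Cp values was not tested.

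Heph (ENSMUSG00000031209, chromosome X) was at 27.6, 35.7 and 26.8 CPM in the 1 day libraries, against 25.3, 20.7 and 19.5 CPM in the ad libitum libraries. The 1 week libraries were at 25.3, 30.7 and 22.3 CPM. The 1 day libraries lay above the ad libitum ones, and the 1 week group overlapped both. The log2 fold change was 0.46 after 1 day (95% interval 0.10 to 0.82, unadjusted p = 0.0177, edgeR adjusted p = 0.485), 0.26 after 1 week (adjusted p = 0.613), and 0.32 and 0.14 without replicate 2 of both fasted groups. Of the 9 genes other than Trf, 1 lay above ad libitum without overlap after 1 day (Heph) and 2 lay below (Fth1 and Slc40a1), where 8.17% and 10.3% of all genes did so. After 1 week 0 of the 9 lay above and 0 below, where 10.9% and 11.5% of all genes did.

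Neither transcript of the iron sensors passed the test. Aco1 (ENSMUSG00000028405, chromosome 4), the cytosolic aconitase that becomes an RNA-binding protein when it loses its iron-sulfur cluster, was at 35.4, 39.0 and 36.5 CPM in the 1 day libraries, 35.4, 32.7 and 34.2 CPM in the 1 week libraries and 34.3, 38.0 and 38.4 CPM in the ad libitum libraries. The groups overlapped in both comparisons with ad libitum. Its 95% intervals were the narrowest of the set, from -0.21 to 0.21 after 1 day and from -0.32 to 0.10 after 1 week on the log2 scale (edgeR adjusted p = 0.994 and 0.714). Ireb2 (ENSMUSG00000032293, chromosome 9), which is degraded when iron is ample, was at 71.8, 100 and 90.6 CPM in the 1 day libraries, 74.5, 88.3 and 65.7 CPM in the 1 week libraries and 79.8, 66.5 and 78.5 CPM in the ad libitum libraries. The groups overlapped, and replicate 2 was the highest library of each fasted group. The log2 fold change was 0.22 after 1 day (adjusted p = 0.602) and 0.02 after 1 week (adjusted p = 0.972). Without replicate 2 of both fasted groups it was 0.12 after 1 day and -0.086 after 1 week.

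Between 1 week and 1 day none of the 10 genes passed edgeR's test, where 0% of 20535 genes were called, 0 had an unadjusted p under 0.05, against 5.22% of all genes, and DESeq2 and limma's voom called none of them. The log2 fold changes lay between -0.20 for Heph and 0.48 for Cp, with a median of -0.06 over the 10 genes and -0.00084 over all genes. Aco1 was the 1 gene without overlap, all 1 week libraries lying below the 1 day ones (34.1 ± 1.39 and 37.0 ± 1.80 CPM, SD, n = 3 each, adjusted p = 0.854), as 3.28% of all genes did, and 0 of the 10 lay above, as 4.5% of all genes did. Over the 9 genes other than Trf, 0 of 153 values from alternative fits passed in each of the 3 comparisons. The lowest adjusted p against ad libitum was 0.294 after 1 day and 0.173 after 1 week, both for Slc40a1 with limma's voom and quality weights.

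The wider iron pathway was described with 5 lists of 92 genes, of which 81 were measured and 11 are not analysed here, among them Hamp, the hepcidin gene. No gene of the 81 passed edgeR's test after 1 day, after 1 week or between 1 week and 1 day. At an unadjusted p under 0.05 there were 6, 3 and 4 of the 81, against 9.27%, 11.2% and 5.22% of all genes. DESeq2 and limma's voom called 1 of the 81, Uros, lower after 1 week, and none in the other 2 comparisons. Over all genes they called 464 and 296 after 1 week. The median log2 fold change over the 81 genes was -0.08 after 1 day, -0.05 after 1 week and 0.0082 between 1 week and 1 day.

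Among 18 genes of heme synthesis, transport and breakdown the median was -0.18 after 1 day and -0.17 after 1 week. Uros, an enzyme of heme synthesis, was at 9.99, 9.84 and 9.91 CPM in the 1 week libraries, against 14.24, 13.05 and 13.22 CPM in the ad libitum libraries. The 1 day libraries were at 11.5, 11.4 and 11.2 CPM, between the other groups and without overlap with either. Uros was named for its p, the smallest of the 81 pathway genes after 1 week. Of all genes, 10.3% after 1 day and 11.5% after 1 week lay below ad libitum without overlap. After 1 week 3.28% lay below the 1 day group in this way. The log2 fold change after 1 week was -0.45 (SE 0.10, edgeR adjusted p = 0.134), with adjusted p of 0.00558 in DESeq2 and 0.0447 in limma's voom. Slc48a1, a heme transporter gene, was at 110, 68.2 and 104 CPM after 1 day and at 124, 126 and 134 CPM in ad libitum mice (log2 fold change -0.45, adjusted p = 0.516), with its low value in replicate 2. Blvrb, a biliverdin reductase gene, had a log2 fold change of -0.45 after 1 day (adjusted p = 0.532).

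In the hepcidin axis, 15 genes that sense body iron through BMP signalling, the median was -0.06 after 1 day and 0.09 after 1 week. Hfe, the gene mutated in common hereditary hemochromatosis, was at 8.76, 7.91 and 9.04 CPM in the 1 week libraries, against 4.79, 5.58 and 7.02 CPM in the ad libitum libraries, with no overlap (log2 fold change 0.56, SE 0.16, unadjusted p = 0.00644, edgeR adjusted p = 0.225). In the 1 day libraries it was at 6.90, 6.04 and 6.11 CPM, below every 1 week library. Hfe was named for its p, the smallest of this list. Of all genes, 10.9% lay above ad libitum without overlap after 1 week, and 4.5% lay above the 1 day group in this way. Smad6, an inhibitor of BMP signalling, and Id1, a BMP target, had log2 differences of 0.90 and 0.85 between 1 week and 1 day (adjusted p = 0.853 for both) and of 0.26 and 0.44 between 1 week and ad libitum (adjusted p = 0.799 and 0.656).

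Of the 12 genes of uptake and ferric reduction, Steap3, an endosomal ferrireductase gene, had a log2 fold change of -0.73 after 1 day (adjusted p = 0.525), Steap2 one of -0.45 after 1 week (adjusted p = 0.414) and Cybrd1, a plasma membrane ferrireductase gene, one of 0.57 between 1 week and 1 day (adjusted p = 0.853). The 9 chaperone and turnover genes had medians of -0.07 after 1 day and -0.06 after 1 week. Fbxl5, which marks the Ireb2 protein for decay, was at 70.8 ± 11.9 CPM after 1 day, 63.5 ± 4.18 CPM after 1 week and 61.7 ± 3.01 CPM in ad libitum mice (SD, n = 3 each). Nubp1, of cytosolic iron-sulfur cluster assembly, had log2 fold changes of -0.43 and -0.31 (adjusted p = 0.539 and 0.617), and Herc2, a ubiquitin ligase gene, of 0.26 and 0.16 (adjusted p = 0.595 and 0.790). Of 27 genes of mitochondrial iron and iron-sulfur clusters, Cisd1, of the outer mitochondrial membrane, had a log2 fold change of -0.34 after 1 day (adjusted p = 0.477), Lyrm4 one of -0.24 after 1 week (adjusted p = 0.448) and Iba57 one of -0.40 after 1 day (adjusted p = 0.544).

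**Figure D5:**
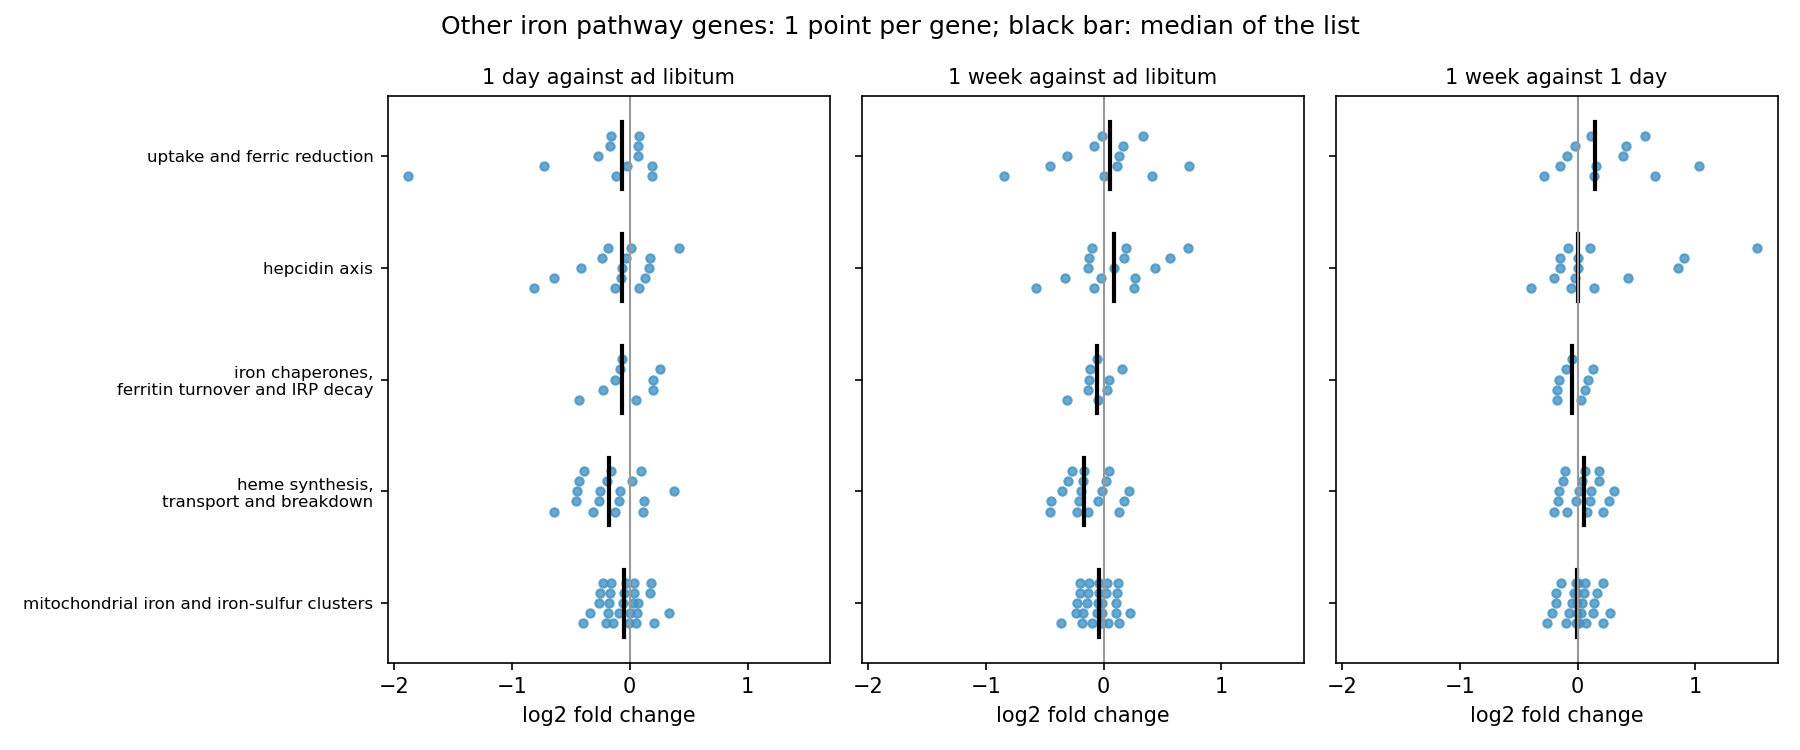
Log2 fold change of 81 further iron pathway genes in 5 lists for the 3 comparisons, 1 point per gene with a black bar at the median of the list. Points scatter on both sides of 0, with medians between -0.18 and 0.15, and no point passed the test.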

How the data were processed

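RNA-seq was run on polyA RNA of substantia nigra lysate with a directional kit, per the labels' protocols. Salmon, DESeq2 1.40.2, GRCm39 and mm39 are named in the submitters' processing notes. The authors deposited estimated counts per gene as whole numbers, so rounding changed nothing. No source used here gives the annotation release or a row filter, and the lowest row mean is 9.89 counts. Groups follow the treatment label.

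edgeR 4.0.16 in R 4.3.3 was fitted to all 9 libraries with TMM factors, after filterByExpr (minimum count 10, total 15) left 20535 genes. Two-sided quasi-likelihood F tests with Benjamini-Hochberg adjustment over all genes were read at 0.05. Standard errors come from the F statistics. Ratios within a library added 0.5 counts to both genes and were tested with exact permutation tests (scipy 1.17.1). The edgeR step was tested on simulated data. The alternatives used DESeq2 1.42.0, limma 3.58.1, other scalings and filters, a replicate block and fits without single libraries.

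The genes, lists and tests were chosen with earlier results of these data known. Named genes are the 10 genes, 3 per pathway list by smallest p, the 8 most like Trf, and defining markers. Ugt8a was named because it passed, and 1 other marker that passed is not reported here. Transcript lengths and sequences are from GENCODE M21 (GRCm38) by gene identifier, 1 principal transcript per gene. It is another build than the authors', so no coordinates are printed.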

Additional observations from a re-analysis of the deposited data

How the results depend on the processing

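Of 510 log2 fold changes of the 10 genes under 17 alternatives, 461 kept their sign and their side of the threshold. The count of the 10 genes past the test after 1 day was 1 with the 6 libraries alone, DESeq2, limma's voom with quality weights and without replicate 2 of both fasted groups, and 0 to 1 without single libraries. After 1 week it was 0 to 1 without single libraries. In each such case the gene was Trf. Of the pathway genes, DESeq2 and voom called 1 after 1 week. Over all genes the 1 day count of 12 was 2 with the replicate block, 26 with 6 libraries, 184 with DESeq2, 93 with voom, 50 without replicate 2 of both fasted groups and 0 to 22 without single libraries. The 1 week count of 63 was 32, 155, 464 and 296 under the first 4 of these and 8 to 121 without single libraries. Between 1 week and 1 day DESeq2 called 3, and 0 to 3 were called without single libraries. The cause was not tested.

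Same-numbered libraries deviated from their group means with correlations from -0.20 to 0.44, and libraries of different number with correlations from -0.33 to 0.26. With 3 libraries per group these values cannot decide whether the numbers pair the libraries. With the replicate block the count of the 10 genes stayed at 0 after 1 day and 1 after 1 week.

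Signs turned in the values given next, none of them past the test. The main log2 difference of Tfrc to Fth1 was 0.28 after 1 week and -0.48 between 1 week and 1 day. In what follows, values stand in the order of voom, without replicate 2 of both fasted groups, and the range without single libraries. After 1 day Slc11a2 was at 0.013, 0.029 and -0.079 to 0.029, and Aco1 at -0.025, -0.035 and -0.046 to 0.037. After 1 week Tfrc was at -6.0e-04, -0.029 and -0.047 to 0.20, Ftl1 at 0.056, 0.22 and -0.21 to 0.22, with 0.0060 under the 1 CPM filter, and Ireb2 at -0.035, -0.086 and -0.086 to 0.12. Between 1 week and 1 day Trf was at 0.082, 0.20 and -0.15 to 0.18, and Slc40a1 at 0.044, 0.12 and -0.30 to 0.042. Fth1 after 1 week was at 0.072 without replicate 2 of both fasted groups and at -0.34 to 0.072 without single libraries. The range without single libraries was -0.14 to 0.25 for Cp after 1 day, -0.061 to 0.017 for Slc11a2 after 1 week, and -0.36 to 0.079 for Tfrc and -0.055 to 0.053 for Slc11a2 between 1 week and 1 day. Without single libraries the log2 Fth1 to Ftl1 difference after 1 day was -0.15 to 0.075, that of Tfrc to Fth1 was -0.088 to 0.48 after 1 week and -0.86 to 0.061 between 1 week and 1 day, and that of Slc40a1 to Tfrc was -0.27 to 0.27 between 1 week and 1 day.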

Other observations

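Transcripts of red blood cells, which carry most of the body's iron in hemoglobin, were present in all libraries. Summed levels of 6 erythrocyte markers were at 282 to 330 CPM in the 1 day libraries and 447 to 483 CPM in the ad libitum libraries, without overlap. In the 1 week libraries they were at 499, 624 and 1508 CPM, all above the ad libitum range. None of the 6 genes passed the test of edgeR, DESeq2 or limma's voom in any of the 3 comparisons. An unadjusted p under 0.05 was found for 0 after 1 day, 3 after 1 week and 5 between 1 week and 1 day. Over all genes the shares were 9.27%, 11.2% and 5.22%. Blood left in the tissue was not measured.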
